A study of Rattus norvegicus with 6 samples.

Results

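The mature miRNAs rno-miR-22-3p, rno-miR-22-5p, rno-miR-221-3p, rno-miR-221-5p and rno-miR-222-3p were examined in rat heart, and are written below without the species prefix. They were taken by name from the deposited count table, and these 5 IDs stand among 1191 mature IDs, of which 699 carry miRBase names. Small RNA had been sequenced from 3 normal hearts and from 3 reperfused hearts, whose left anterior descending coronary artery was tied for 0.5 h and then reopened for 0.5 h (ischemia-reperfusion). All 6 hearts were labelled wild type, the labels give the normal hearts as controls, and the strain and age of the rats and the part of the heart sampled are not stated in the labels. The design asks which miRNAs differ between normal and early reperfused heart, and the hearts are identified by number alone. The p-values therefore cover only the variation among these 6 libraries, which may be technical.

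A miRNA is cut from a hairpin precursor that can release a mature strand from either arm, named 5p and 3p. The strand that is kept guides an Argonaute protein to messenger RNAs that pair with its seed, bases 2 to 8, and lowers their translation and stability. miR-22 is abundant in heart and skeletal muscle, and in mice it is known as a regulator of cardiomyocyte growth and stress remodelling. miR-221 and miR-222 are made from neighbouring genes, share a seed, and are known from vessels, where they act in opposite ways in endothelial and smooth muscle cells; the cell cycle inhibitor p27 and the receptor Kit are their best known targets.

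The mature sequences are shown because the seed decides which of these miRNAs can share targets. All 5 matched RefSeq entries of the rat build GRCr8 with the same sequence as the deposited table. The seed is in capitals and each sequence runs 5′ to 3′.
miR-22-3p: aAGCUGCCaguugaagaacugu
miR-22-5p: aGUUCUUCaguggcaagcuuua
miR-221-3p: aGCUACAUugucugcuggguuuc
miR-222-3p: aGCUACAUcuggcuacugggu
miR-221-5p: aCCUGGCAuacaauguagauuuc
miR-221-3p and miR-222-3p are identical over their first 8 bases, which include the whole seed, and diverge after that. No other entry of the table has their seed, and none has that of miR-22-3p. The seed of miR-22-5p is shared with miR-3568, which had no listed count in any library, and that of miR-221-5p with a predicted entry of at most 9 counts per library.

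The hairpins are shown because they fix which arms were compared and which extra bases of an isoform belong to the precursor. Capitals mark the mature members, and positions are those of RefSeq in GRCr8 on the plus strand. Mir22 lies at chr10:60805331-60805425, Mir222 at chrX:6022621-6022723 and Mir221 at chrX:6023182-6023290.
Mir22: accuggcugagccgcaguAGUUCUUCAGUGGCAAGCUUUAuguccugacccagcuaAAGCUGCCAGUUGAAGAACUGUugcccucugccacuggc
Mir221: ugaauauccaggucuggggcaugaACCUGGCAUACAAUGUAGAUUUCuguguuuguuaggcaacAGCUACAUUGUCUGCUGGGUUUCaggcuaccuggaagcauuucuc
Mir222: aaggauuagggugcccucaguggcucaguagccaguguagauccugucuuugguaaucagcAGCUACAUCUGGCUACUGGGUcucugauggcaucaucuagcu
The Mir222 and Mir221 hairpins are 458 bases apart, and RefSeq places both within the bounds of 2 long non-coding RNA genes. Mir22 lies between Mir6326 and Tlcd2 and inside no other gene of that table. The 5p arm of miR-222, which is not one of the 5, had 3 counts in 1 library and none listed in the other 5.

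Of the 5, 4 were read mostly as sequences other than the listed one. For each of these 4 the most abundant sequence in the table began at the same base as the listed mature sequence and was found in the hairpin, so the seed was kept and the difference lay at the 3′ end. These sequences are given as DNA letters, as deposited, with bases beyond the listed 3′ end in capitals.
miR-22-5p: agttcttcagtggcaagcttt
miR-221-3p: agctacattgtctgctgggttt
miR-221-5p: acctggcatacaatgtagatttcTGT
miR-222-3p: agctacatctggctactgggtCTCT
The most abundant forms of miR-22-5p and miR-221-3p were 1 base shorter than the listed ones, while that of miR-221-5p was 3 bases longer and that of miR-222-3p was 4 bases longer, at 25 against 21 bases. For miR-22-3p the listed sequence of 22 bases was itself the most abundant. Among 123 miRBase-named miRNAs with a mean of at least 100 CPM, the listed sequence was the most abundant for 46.3%.

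Total counts ranged from 6963312 to 8429988 in normal libraries and from 1376947 to 2814802 after ischemia-reperfusion, so depth and group cannot be told apart. Levels are given as CPM, the all-isoform counts scaled to a common library size with TMM factors, and a tag stands for a whole small RNA, so no length correction enters. The labelled tissue was checked against fixed marker miRNAs. The 5 heart muscle markers summed to 248767 to 442050 CPM in normal libraries and 194695 to 301303 CPM after ischemia-reperfusion, and the 2 endothelial markers to 59755 to 117720 and 55658 to 63557 CPM. The 2 smooth muscle markers summed to 124180 to 146963 and 117939 to 124139 CPM, the 5 leukocyte markers to 601 to 685 and 489 to 593 CPM, and the 3 red cell markers to 50.4 to 160 and 74.9 to 384 CPM. Liver miR-122-5p was at 30.4 to 82.5 and 79.1 to 867 CPM, and the 2 neuronal markers summed to 72.9 to 77.3 and 80.9 to 122 CPM. By edgeR at an adjusted p of 0.05, 1 of 5 heart muscle and 1 of 5 leukocyte markers tested were called lower. miR-122-5p was called higher, and no other marker tested was called. Of the 305 miRBase-named miRNAs tested, 13.8% were called lower and 3 higher, so these counts are no result about the cell types. The part of the marker differences in the values below was not tested. In bulk tissue, fewer cells of a type and less RNA per cell cannot be told apart.

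miR-22-3p was the most abundant of the 5 by far, and its rank among the 699 miRBase-named miRNAs was 20 to 22 in every library. Its level in the normal hearts, in the order of replicates 1 to 3 used throughout, was 5827, 7396 and 9299 CPM, and in the reperfused hearts 5506, 4825 and 4845 CPM. All 3 normal hearts lay above all 3 reperfused hearts, with normal replicate 1 only slightly above the highest of them and the reperfused hearts close together. The passenger strand of the same hairpin, miR-22-5p, stood at 304, 310 and 493 CPM in the normal and 268, 198 and 240 CPM in the reperfused hearts. Again the groups did not overlap, and again normal replicate 3 was the highest. Groups that did not overlap were found for 41.0% of the 305 miRBase-named miRNAs tested, and 38.7% were lower in that way. Scaled by the library total instead of TMM, both arms overlapped between groups. For miR-22-3p, ischemia-reperfusion replicates 1 and 2 (6178 and 5369 counts per 1e6) were then above normal replicate 1 (5313), and for miR-22-5p ischemia-reperfusion replicate 1 (301) was above normal replicates 1 and 2 (277 and 294).

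miR-221-3p stood at 132, 157 and 104 CPM in the normal and 104, 114 and 162 CPM in the reperfused hearts. The highest value of either group was in a reperfused heart and the lowest values of both groups were nearly equal. Its seed partner miR-222-3p stood at 108, 70.4 and 55.9 CPM in the normal and 60.8, 67.4 and 106 CPM in the reperfused hearts. The groups covered almost the same range, with normal replicate 1 and ischemia-reperfusion replicate 3 high. miR-221-5p, the minor strand, stood at 16.5, 20.6 and 14.3 CPM in the normal and 5.83, 12.7 and 16.2 CPM in the reperfused hearts. The lowest of these, in ischemia-reperfusion replicate 1, rests on 9 counts.

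**Figure D1:**
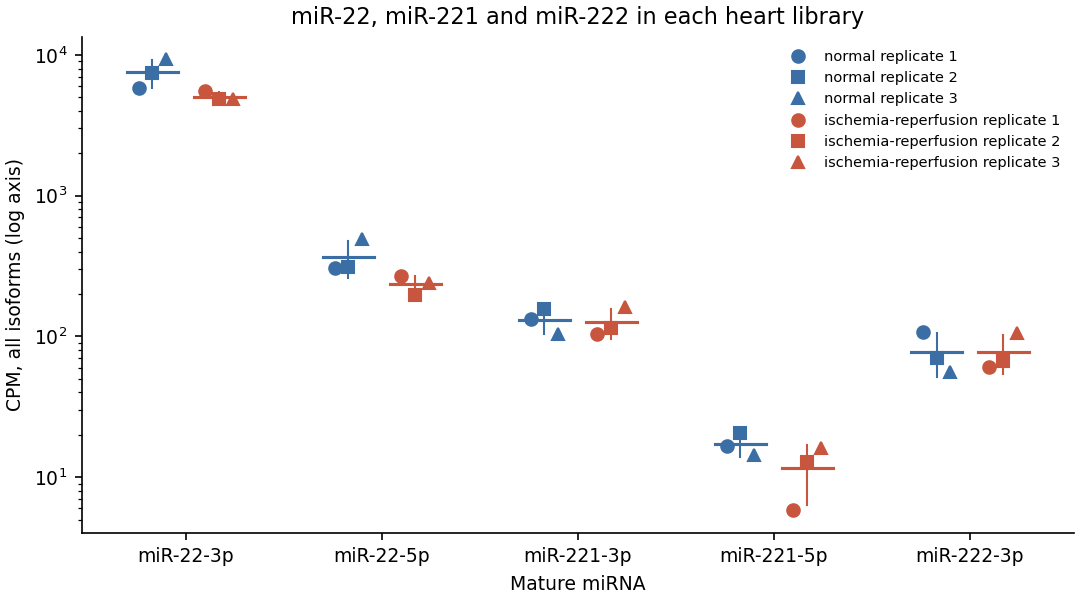
CPM of all isoforms (log axis) of the 5 miRNAs in each library, with normal hearts in blue and ischemia-reperfusion hearts in red, the replicate number by symbol, and the group mean and SD as lines. With TMM, both arms of miR-22 sit lower in all 3 reperfused hearts, while miR-221 and miR-222 overlap between groups. Lower groups without overlap were found for 38.7% of the 305 miRBase-named miRNAs tested. Scaled by library totals, both miR-22 arms overlap too.

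The order of the 5 was the same in all 6 libraries: miR-22-3p, miR-22-5p, miR-221-3p, miR-222-3p and miR-221-5p. Averaged over the libraries they stood at 6283, 302, 129, 78.1 and 14.4 CPM, which placed them at ranks 21, 88, 112, 135 and 197 of the 699 miRBase-named miRNAs. miR-22-3p stood between miR-100-5p (6703 CPM) and miR-27a-3p (4656 CPM), and was above miR-27a-3p in 6 of 6 libraries but above miR-100-5p in 2. miR-22-5p stood between miR-423-3p (325 CPM) and miR-143-5p (301 CPM), and miR-221-3p between miR-224-5p (133 CPM) and miR-340-5p (128 CPM). miR-222-3p stood between miR-345-3p (79.6 CPM) and miR-214-3p (73.3 CPM), and miR-221-5p between miR-338-3p (14.4 CPM) and miR-411-5p (14.3 CPM). With these 8 neighbours and with miR-100-5p the order changed from library to library, so those places in the ranking are not fixed.

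By edgeR's quasi-likelihood test at an adjusted p of 0.05, 0 of the 5 passed, against 42.7% of all 524 entries tested (33.4% higher and 9.35% lower after ischemia-reperfusion) and 14.8% of the 305 miRBase-named ones (13.8% lower). Both arms of miR-22 had an unadjusted p under 0.05, and DESeq2 and limma-voom also passed 0 of the 5. miR-22-3p averaged 7508 ± 1739 CPM in the normal and 5058 ± 387.5 CPM in the reperfused hearts (SD, n = 3 each). This gave a log2 fold change of -0.57 ± 0.19 (SE; 95% interval -1.03 to -0.11; edgeR adjusted p = 0.0517). miR-22-5p averaged 369 ± 108 and 235 ± 35.4 CPM (SD, n = 3 each), for a log2 fold change of -0.65 ± 0.24 (SE; 95% interval -1.23 to -0.069; edgeR adjusted p = 0.0715). Both arms of the hairpin were thus at about the same fold of their normal level, with a ratio of group means of 0.674 for miR-22-3p and 0.638 for miR-22-5p. Both passed as lower without normal replicate 1, the lowest of the normal hearts (adjusted p = 0.0137 for miR-22-3p and 0.0406 for miR-22-5p), with upper-quartile factors (0.00344 and 0.00445) and with no filter on low counts (0.0232 and 0.0288). These were 3 of 19 alternatives, and neither arm passed in the rest. The edgeR adjusted p reached 0.616 for miR-22-3p and 0.963 for miR-22-5p there. The median log2 fold change of the miRBase-named miRNAs was lowest in the 3 that passed, at -0.49, -0.89 and -0.59. In the same order, these 3 called 67, 145 and 47 miRBase-named miRNAs lower, against 42 in the main fit. They called 254 of 532, 334 of 524 and 321 of 967 entries tested, against 224 of 524 in the main fit.

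miR-221-3p averaged 131 ± 26.3 CPM in the normal and 127 ± 31.1 CPM in the reperfused hearts (SD, n = 3 each), for a log2 fold change of -0.05 ± 0.24 (SE; 95% interval -0.63 to 0.54; edgeR adjusted p = 0.889). miR-222-3p averaged 78.2 ± 27.01 and 77.97 ± 24.2 CPM (SD, n = 3 each), for a log2 fold change of 0.0004 ± 0.33 (SE; 95% interval -0.77 to 0.78; edgeR adjusted p = 0.9999). miR-221-5p averaged 17.1 ± 3.22 and 11.6 ± 5.30 CPM (SD, n = 3 each), for a log2 fold change of -0.54 ± 0.44 (SE; 95% interval -1.59 to 0.51; edgeR adjusted p = 0.358). The intervals of these 3 include 0, and each also holds the fitted value of miR-22-3p. miR-221-3p had the opposite sign when scaled by RLE (0.056), by library totals (0.18) or on the miRBase-named miRNAs (0.28), and the sign of miR-222-3p turned negative with upper-quartile factors (-0.48).

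**Figure D2:**
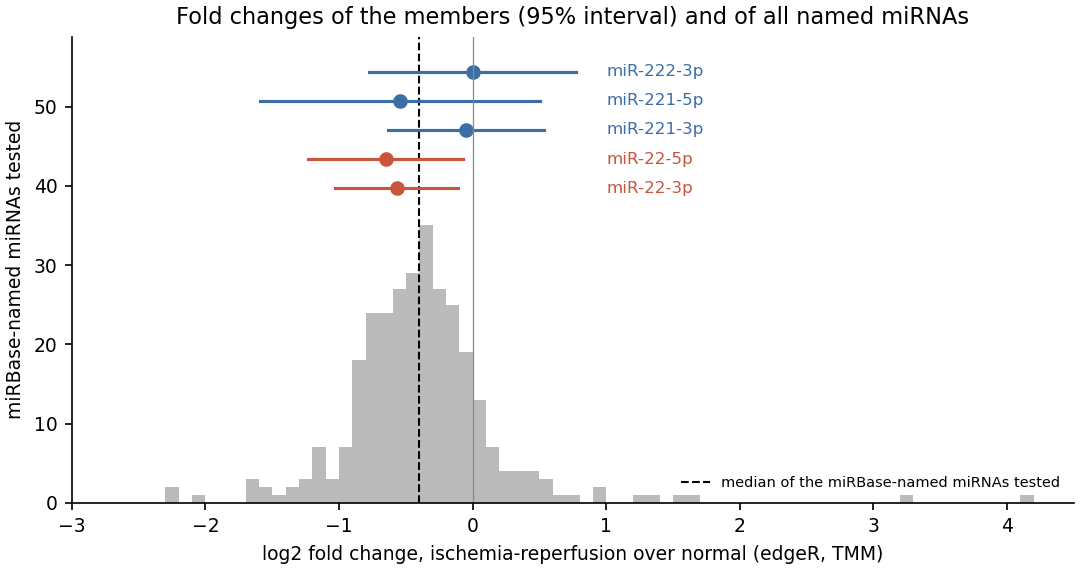
Histogram of the log2 fold changes (ischemia-reperfusion over normal, edgeR with TMM) of the 305 miRBase-named miRNAs tested, with the 5 members above it as points with 95% intervals. The dashed line is the median of the named miRNAs, -0.40; both miR-22 arms lie just below it and miR-221-3p and miR-222-3p above it.

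The fold changes of all 5 moved with the scaling. The median log2 fold change of the miRBase-named miRNAs was -0.40 with TMM, -0.29 with RLE factors, -0.16 with total counts, -0.07 with factors from miRBase-named miRNAs and -0.89 with upper-quartile factors, and it was -0.04 when these miRNAs were fitted alone. Over these 6 scalings the log2 fold change of miR-22-3p ran from -1.09 to -0.20, and its distance from that median from -0.19 to -0.15. A change of scaling moves all miRNAs nearly alike, so the distance cancels most of it by construction. For miR-22-5p the distance was -0.27 to -0.23, and for miR-221-5p -0.17 to -0.099. miR-221-3p lay 0.33 to 0.37 above the median and miR-222-3p 0.37 to 0.41 above it. The distances moved more with the libraries: leaving out each in turn, that of miR-22-3p ran from -0.31 (without normal replicate 1) to -0.033 (without normal replicate 3) and that of miR-22-5p from -0.40 (without ischemia-reperfusion replicate 1) to -0.028 (without normal replicate 3). Those of miR-221-3p and miR-222-3p stayed above the median, at 0.17 to 0.49 and 0.17 to 0.73, and that of miR-221-5p ran from -0.39 to 0.10. In counts of the listed sequence alone, miR-22-3p lay at -0.27, miR-22-5p at 0.0005 and miR-222-3p at -0.0095 from the median. miR-221-3p lay at 0.26 there, and miR-221-5p, which rests on few counts, at -0.52. With TMM, 34.4% of the 305 miRBase-named miRNAs had a lower log2 fold change than miR-22-3p and 26.6% a lower one than miR-22-5p, while 83.3% were below miR-221-3p and 85.2% below miR-222-3p. These distances carry no test.

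**Figure D3:**
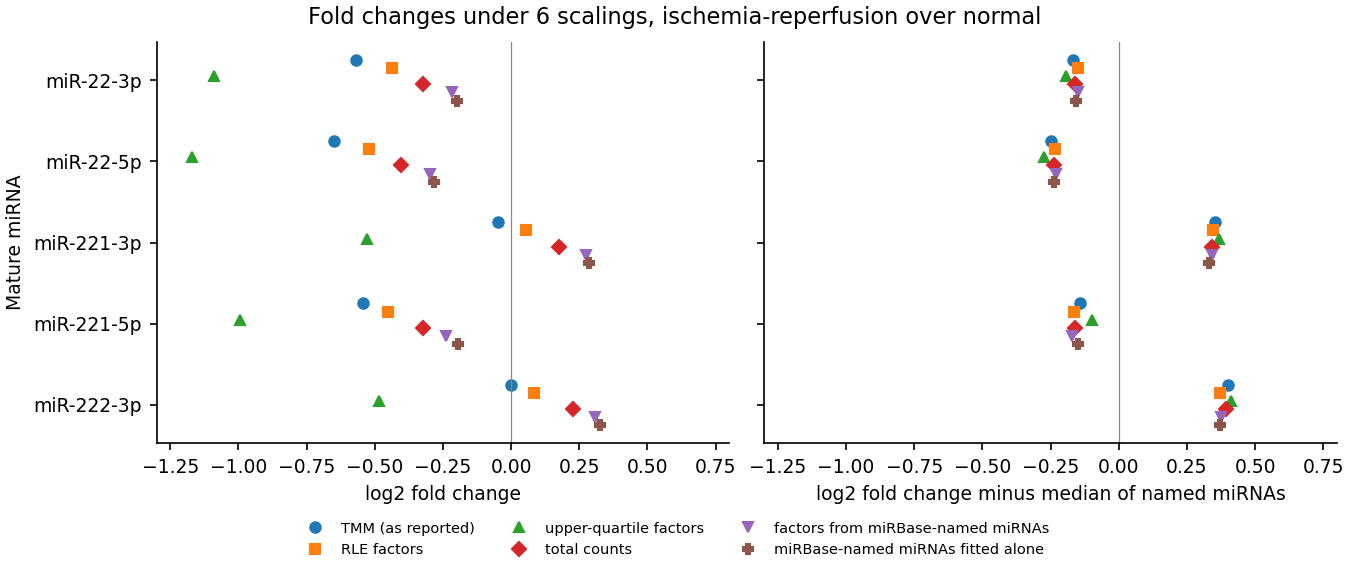
Log2 fold changes of the 5 miRNAs under 6 scalings (left) and the same values minus the median of the miRBase-named miRNAs under that scaling (right). The points of a miRNA spread on the left and draw together on the right, where the subtraction removes the shift that all miRNAs share; miR-22-3p lies there between -0.19 and -0.15.

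Ratios of 2 miRNAs counted in the same library need no scaling factor and compare their changes directly. In all 14 within-library measures were tested: these ratios, the summed share of the 5, and the shares of the listed and most abundant sequences. None had an adjusted p below 0.875 in two-sided exact permutation tests. The lowest p that 3 against 3 libraries allow is 0.1. The 2 arms of miR-22 kept a nearly fixed ratio. There were 19.2, 23.9 and 18.9 counts of miR-22-3p for each of miR-22-5p in the normal hearts, and 20.5, 24.4 and 20.2 in the reperfused hearts. The groups overlapped, with a difference of 0.076 in the mean log2 ratio (exact permutation p = 0.5). Over 44 precursors with both arms at 10 CPM or more, the median size of that difference was 0.27.

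The arm ratio of miR-221 rests on far fewer counts. miR-221-3p outnumbered miR-221-5p 8.0, 7.59 and 7.30 times in the normal and 17.8, 8.97 and 9.98 times in the reperfused hearts. All 3 reperfused hearts lay above the tightly grouped normal hearts, and the highest, ischemia-reperfusion replicate 1, has 160 counts of the 3p arm against 9 of the 5p arm. The mean log2 ratio was 0.61 higher after ischemia-reperfusion (exact permutation p = 0.1, which is the lowest attainable; adjusted p = 0.875) and 0.31 higher without that library. Groups that did not overlap in this ratio were found for 20.5% of the 44 precursors. Counting errors are large here, since the 5p arm had 9, 31 and 47 counts in the reperfused hearts against 105, 162 and 108 in the normal ones.

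miR-221-3p and miR-222-3p, which come from neighbouring hairpins, stood at ratios of 1.22, 2.22 and 1.86 in the normal and 1.70, 1.70 and 1.53 in the reperfused hearts. miR-221-3p was the higher in every library, the reperfused hearts lay within the range of the normal ones, and the mean log2 ratio differed by -0.065 (exact permutation p = 0.8). The spread among normal hearts, an SD of 0.44 on the log2 scale, was larger than among reperfused hearts, at 0.086. miR-22-3p stood at 24.2, 32.6 and 58.1 times the sum of miR-221-3p and miR-222-3p in the normal hearts, and at 33.5, 26.6 and 18.1 times in the reperfused ones. The highest value was in normal replicate 3 and the lowest in ischemia-reperfusion replicate 3, and the other 4 overlapped (difference in mean log2 ratio -0.50; exact permutation p = 0.5). Leaving out normal replicate 3 made this difference -0.15, leaving out ischemia-reperfusion replicate 3 made it -0.26, and leaving out normal replicate 1 made it -0.79. Together the 5 held 0.582%, 0.756% and 0.895% of counts in the normal and 0.667%, 0.581% and 0.552% in the reperfused hearts (exact permutation p = 0.2).

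**Figure D4:**
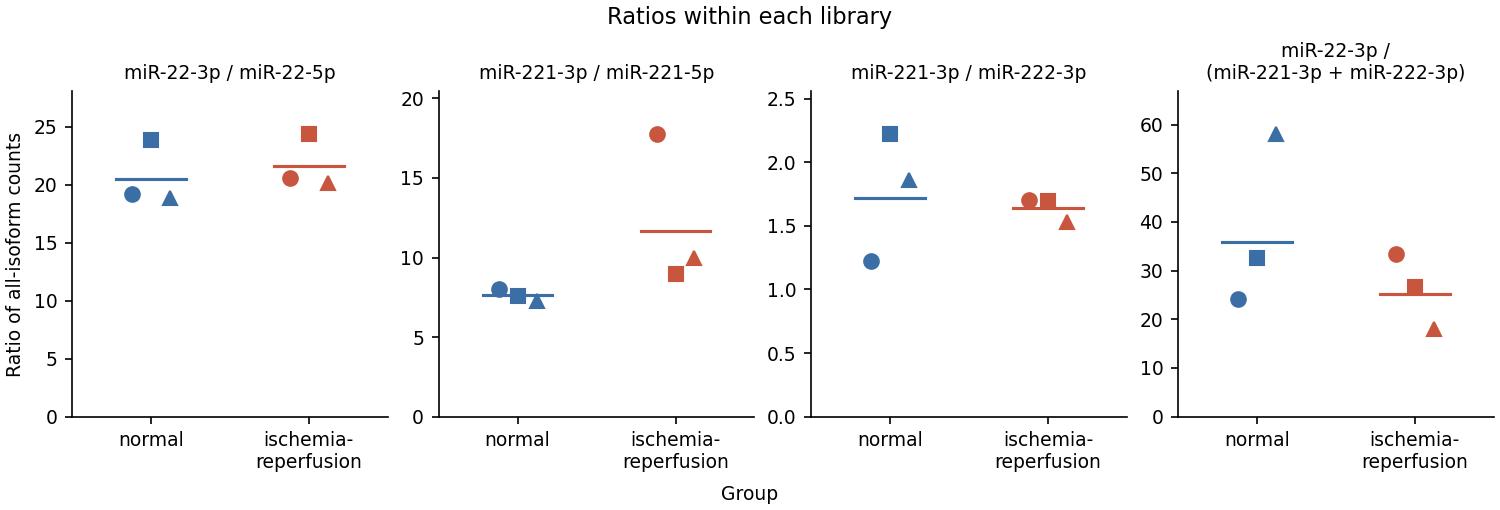
Ratios of all-isoform counts within each library (linear axes from 0), normal in blue and ischemia-reperfusion in red, with the replicate number by symbol and the geometric mean as a line. The miR-22 arm ratio overlaps between groups, and the miR-221 arm ratio is higher in all 3 reperfused hearts. Groups without overlap in the arm ratio were found for 20.5% of 44 precursors. The highest miR-221 arm ratio, in ischemia-reperfusion replicate 1, rests on 9 counts of the 5p arm.

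The make-up of each miRNA by sequence was next compared, with the sequences given above. miR-22-3p was read mainly as listed. Its listed sequence made up 58.8%, 58.7% and 60.7% of its counts in the normal and 60.4%, 59.9% and 60.2% in the reperfused hearts. The groups overlapped (exact permutation p = 0.4), and the 95% Wilson intervals, which cover counting error only, reached from 58.3% to 61.5% over all libraries. The mean share, 59.8%, was above that of 98.4% of the 123 miRBase-named miRNAs with at least 100 CPM, whose median was 20.8%.

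miR-22-5p was read chiefly without its last listed base. The form ending 1 base earlier made up 60.3%, 66.5% and 70.8% of its counts in the normal and 69.3%, 66.1% and 65.4% in the reperfused hearts. The listed sequence made up 12.8%, 9.10% and 6.40% in the normal and 8.70%, 13.7% and 13.4% in the reperfused hearts. Neither share separated the groups (exact permutation p = 0.9 and 0.3). Normal replicate 3, with the highest level of miR-22, had the lowest share of the listed form. All remaining isoforms of miR-22-5p made up 26.9%, 24.4% and 22.8% of counts in the normal and 21.98%, 20.2% and 21.3% in the reperfused hearts, without overlap; this remainder was looked at after its values were seen, and 22.8% of the 123 miRNAs likewise did not overlap in it.

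miR-222-3p was seldom read as listed. The sequence ending at the listed base held 7.71%, 6.69% and 11.8% of its counts in the normal and 8.51%, 7.32% and 5.88% in the reperfused hearts, and the form with 4 more hairpin bases, CTCT in the sequences above, held 38.1%, 28.2% and 29.8% and then 37.2%, 34.8% and 34.6%. The groups overlapped in both (exact permutation p = 0.5 and 0.4). Counting miR-222-3p by its listed sequence alone would thus have kept 5.88% to 11.8% of its reads. For miR-221-3p the form 1 base shorter held 23.1% to 35.3% of counts over the 6 libraries and the listed form 12.6% to 17.9%, again with overlap between groups (exact permutation p = 0.9 and 0.8).

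For miR-221-5p the form with 3 more bases held 25.7%, 24.7% and 25% of counts in the normal and 44.4%, 12.9% and 29.8% in the reperfused hearts. The reperfused values rest on 4, 4 and 14 counts of that form, and the 95% Wilson interval of the first runs from 18.9% to 73.3%. The listed form of miR-221-5p held 18.1%, 14.8% and 8.33% in the normal hearts. It held 16.1% and 10.6% in ischemia-reperfusion replicates 2 and 3, and in replicate 2 its 5 counts exceeded the 4 of the longer form. The listed form of miR-221-5p had no listed count in ischemia-reperfusion replicate 1, and the table lists no count below 2. Across 123 miRNAs, groups did not overlap in the listed-sequence share for 22.8% and in the most abundant share for 24.4%, while none of the 5 separated the groups in either share.

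**Figure D5:**
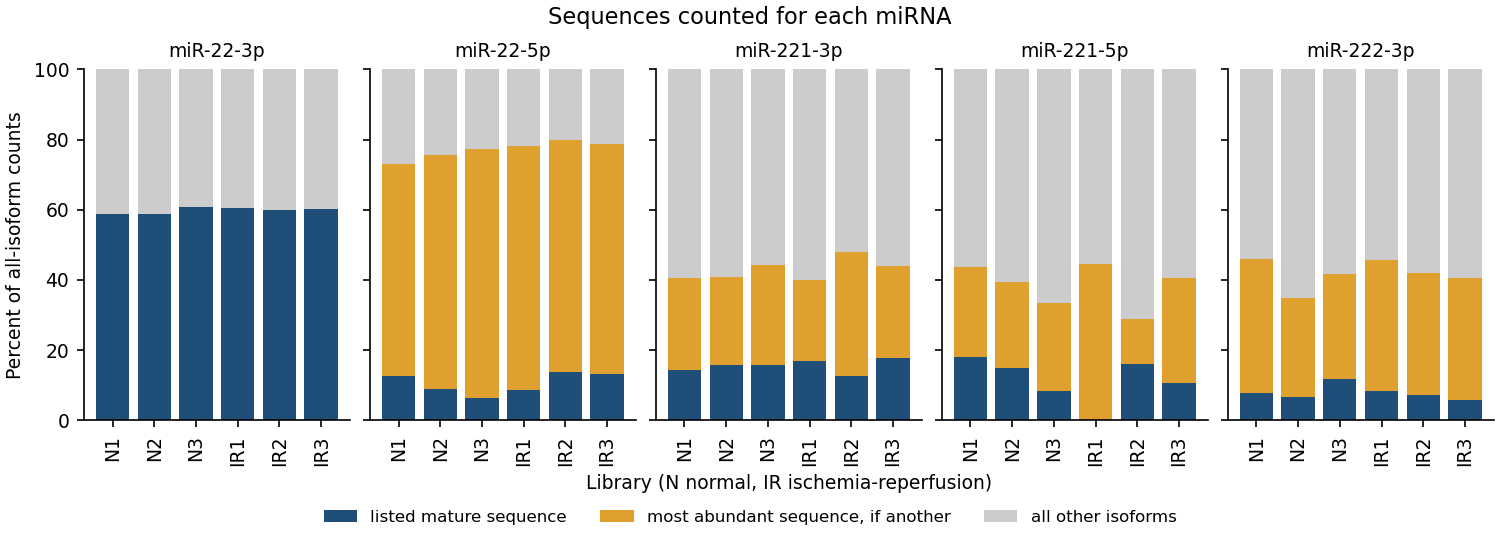
Percent of the all-isoform counts of each miRNA that were the listed mature sequence, the most abundant sequence where that is another, and all other isoforms, in each library (N normal, IR ischemia-reperfusion). miR-22-3p is read as listed at 58.7% to 60.7%, miR-22-5p mostly as the 1-base shorter form, and miR-221 and miR-222 as mixtures.

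Likeness over the 6 libraries was measured as the root-mean-square difference of log2(CPM + 1), each miRNA centred on its own mean, against 120 other miRBase-named miRNAs with a mean of at least 100 CPM. For miR-22-5p no candidate was closer than the other arm of its own hairpin, miR-22-3p, at 0.15; next came miR-450b-5p (0.15), miR-499-5p (0.17) and miR-450a-5p (0.18), against a median of 0.34. Closest to miR-22-3p were miR-450b-5p (0.079), miR-126a-3p (0.10) and miR-450a-5p (0.11), with a median of 0.29, and 12 candidates were closer than miR-22-5p. miR-221-3p was closest to miR-7a-5p (0.15), miR-1b (0.16) and let-7i-5p (0.17), and miR-222-3p to miR-7a-5p (0.18), miR-1b (0.18) and let-7e-5p (0.19). The seed partners miR-221-3p and miR-222-3p differed by 0.26; 25 candidates were closer to miR-221-3p and 13 closer to miR-222-3p. miR-221-5p was closest to miR-191a-5p (0.19), miR-125b-5p (0.20) and miR-125a-5p (0.22), and 34 candidates were closer to it than miR-221-3p. The median distance was 0.34 for miR-221-3p and 0.45 for both miR-222-3p and miR-221-5p. miR-222-3p and miR-221-5p lie below the 100 CPM asked of candidates, and miR-221-5p had 9 to 162 counts per library. The part of counting error in these distances was not tested. miR-22-3p and miR-222-3p were the least alike of the 3p strands, at 0.61. These are descriptions of 6 libraries that differ in depth between groups, with no test.

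Other miRNAs known from vessels and from cardiomyocyte growth were counted beside the 5. Of 15 vascular miRNAs tested, 2 fell and none rose in edgeR's test, with a median log2 fold change of -0.28, where 13.8% of the 305 miRBase-named miRNAs and 9.35% of all 524 entries were called lower. The 2 were miR-145-3p, from the smooth muscle miR-143 and miR-145 cluster (log2 fold change -0.51 with an SE of 0.13; adjusted p = 0.0205), as well as miR-24-3p (-0.58 ± 0.19, SE; adjusted p = 0.0490), whose change was close to that of miR-22-3p. The other listed members of the miR-143 and miR-145 cluster were not called. Their log2 fold changes were 0.055 for miR-145-5p, -0.13 for miR-143-3p and -0.11 for miR-143-5p. Of 16 cardiomyocyte growth miRNAs tested out of 17, 1 fell and none rose, with a median of -0.28. Both counts are near those shares and are no result about the lists. The one that fell was miR-499-5p, whose hairpin lies in a myosin heavy chain intron (-0.70 ± 0.21, SE; adjusted p = 0.0307). The medians over all 524 entries and over the miRBase-named ones were -0.17 and -0.40. The calls were lost in most of the 19 alternatives, since miR-145-3p and miR-499-5p each passed as lower in 7 and miR-24-3p in 3.

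In the authors' deposited table, the fold of ischemia-reperfusion over normal is 0.795 for miR-22-3p (false discovery rate 0.405), 0.774 for miR-22-5p (0.448) and 0.931 for miR-221-5p (0.826). In the authors' deposited table it is 1.13 for miR-221-3p (false discovery rate 0.697) and 1.19 for miR-222-3p (0.652). Of 589 rows in the authors' deposited table, 1 has a false discovery rate under 0.05. These folds are ratios of group means to which the authors added 10, which draws the fold of the low miR-221-5p towards 1.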

How the data were processed

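Small RNA libraries from 3 normal and 3 ischemia-reperfusion rat hearts were grouped by their labels. Per the labels' protocols, RNA extracted with Trizol was ligated to adaptors, amplified by PCR, size selected and sequenced on an Illumina NextSeq. Ligation and PCR favour some sequences, so levels of different miRNAs compare reads, not molecules. The submitters' processing notes name Novoalign 2.07.11; what it was used for, the build, the miRBase release and the mismatch limit are not stated there. The raw table deposited by the authors holds counts per library in 3 forms: the listed mature sequence, the most abundant sequence, and every isoform. Empty cells were taken as 0; no listed count is below 2. Normalized values deposited by the authors are whole numbers from a method that is not stated, and were handled as a score. The authors' comparison table lists means of such scores plus 10, their ratio as a fold, an unpaired p-value and a false discovery rate.

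Of the 1257 rows, the one with the highest total was used for each mature ID; each of the 5 miRNAs had 1 row. All-isoform counts of the whole table were tested in R 4.3.3 with edgeR 4.0.16 (filterByExpr, minimum count 10; TMM; robust quasi-likelihood F test), adjusting over all 524 entries tested by Benjamini-Hochberg at 0.05. All 5 miRNAs passed the filter. SE values are derived from the log2 fold change and F. CPM are relative to TMM-scaled library sizes. Ratios and shares within a library were compared by two-sided exact permutation tests (SciPy 1.17.1), adjusted over 14 measures. Wilson intervals at 95% treat reads as independent, which PCR copies without molecular identifiers are not. The edgeR script was tested on simulated data. Alternatives were other scalings, DESeq2 1.42.0, limma 3.58.1 (voom, and the authors' normalized values plus 10 or plus 1), the other count forms, no filter, a replicate block and leaving out each library.

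Named beside the 5 were the 3 most alike miRNAs each, seed partners, neighbours in rank, and list members past the test with the smallest p. miR-24-3p and the other listed members of the miR-143 and miR-145 cluster were added after their values were seen. The miRNAs, lists and tests were chosen with earlier results of these data known.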

Additional observations from a re-analysis of the deposited data

How the results depend on the processing

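The log2 fold changes of all 5 depend on the scaling, and the fewest counts are those of miR-221-5p, with 9 in ischemia-reperfusion replicate 1. Over 19 alternatives the sign of miR-22-3p, miR-22-5p and miR-221-5p stayed negative in all, while miR-221-3p was negative in 7 and miR-222-3p in 6. Both miR-22 arms fell past the threshold under upper-quartile scaling (-1.09 and -1.17), with no filter (-0.66 and -0.74) and without normal replicate 1. In the same order, these settings called 334 of 524, 321 of 967 and 254 of 532 entries tested. They called 145, 47 and 67 miRBase-named miRNAs lower, against 42 in the main fit. In the other 16 alternatives the miR-22 arms did not pass. miR-221-3p had a positive sign when scaled by RLE (0.056), by library totals (0.18) or on the miRBase-named miRNAs (0.28), when those were fitted alone (0.29), in counts of the listed sequence (0.22) or of the most abundant one (0.12), in DESeq2 (0.045) and in limma on the authors' normalized values plus 10 (0.18) or plus 1 (0.20). miR-222-3p turned negative with upper-quartile factors (-0.48), no filter (-0.063) and listed-sequence counts (-0.048). In listed-sequence counts the difference in mean log2 ratio, ischemia-reperfusion minus normal, turned to -0.27 for the arms of miR-22. For miR-221-3p to miR-222-3p that difference turned to 0.20. The miR-221 arm ratio could not be given in listed-sequence counts, since a count is at 0. The main fit called 224 of 524 entries tested, and 45 of the 305 miRBase-named ones. Fitting the miRBase-named miRNAs alone called 8 of 305. Listed-sequence counts gave 38 of 229, and counts of the most abundant sequence 118 of 387. The causes of these and the other changes were not tested.

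Leaving out each library in turn gave log2 fold changes of -0.80 to -0.40 for miR-22-3p, -0.85 to -0.46 for miR-22-5p, -0.26 to 0.15 for miR-221-3p, -0.74 to -0.16 for miR-221-5p (-0.16 without ischemia-reperfusion replicate 1) and -0.26 to 0.24 for miR-222-3p. The difference in log2 ratio ran from -0.012 to 0.19 for the arms of miR-22 and from -0.31 to 0.12 for miR-221-3p to miR-222-3p. The difference in the most abundant share ran from -1.74 to 3.52 percentage points for miR-22-5p, -1.90 to 4.16 for miR-221-3p and -3.79 to 11.98 for miR-221-5p, and that in the listed share from -0.67 to 1.99 for miR-221-3p and -2.53 to 0.034 for miR-222-3p. The replicate numbers are labels alone. Same-numbered libraries had correlations of their deviations from the group means of -0.20, 0.019 and -0.12 over 524 entries, so they were not treated as pairs, and normal replicate 1 correlated best with ischemia-reperfusion replicate 3. With the replicate number as a block, 152 entries were called, and the log2 fold changes were -0.55 (adjusted p = 0.128) for miR-22-3p, -0.62 (0.105) for miR-22-5p, -0.058 for miR-221-3p, -0.64 for miR-221-5p and 0.013 for miR-222-3p.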
